A study of Mus musculus with 9 samples.

Results

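The proteasome genes described here are the protein-coding mouse genes whose symbols begin with Psma, Psmb, Psmc, Psmd, Psme, Psmf or Psmg followed by a digit and that had at least 10 raw counts in at least 3 of the 9 libraries. Of 56923 gene identifiers, 54 matched by name, 50 of these were protein-coding and 48 met the count minimum, against 13828 protein-coding genes that met it in the whole table. They fall into 14 genes of the standard core particle, 3 immunoproteasome genes, 17 genes of the regulatory particle, 7 assembly chaperones and 6 activators or inhibitors. The last of the 48, Psmc3ip, shares the name pattern but is a cofactor of meiotic recombination and no proteasome part. All 48 also passed the low-count filter of the test.

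The proteasome is the main protease of the cytosol and nucleus and degrades proteins tagged with ubiquitin. Its core particle is a barrel of alpha and beta rings, with the peptide-cutting sites on the beta subunits Psmb5, Psmb6 and Psmb7. The regulatory particle caps the barrel, binds and removes ubiquitin and unfolds the substrate with a ring of ATPases. Immune cells, and other cells exposed to interferon, can build an immunoproteasome in which Psmb8, Psmb9 and Psmb10 replace Psmb5, Psmb6 and Psmb7 and which favours peptides suited to presentation on MHC class I. In the kidney, injured tubule cells are one setting in which damaged proteins have to be cleared.

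The samples are kidneys of wild-type (WT) mice, with 3 RNA libraries in each of 3 groups. Sham mice had surgery without ischemia-reperfusion (IR) injury and carry the treatment label PBS. AKI_PBS are mice with acute kidney injury (AKI) given PBS, a saline vehicle. AKI_PTPi_mEVs are mice with AKI given PTPi@mEVs, extracellular vesicles from milk whose siRNA cargo targets PTP1B, the tyrosine phosphatase encoded by Ptpn1. No group with empty vesicles or a control siRNA was among the samples, so vesicle and siRNA cannot be told apart, and the labels give neither age nor time after injury. They do not say whether the libraries within a group are separate animals, and each p-value therefore reflects spread among libraries that may be technical.

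Library totals lay between 9467851 and 11389479 counts. Levels are given in CPM, raw counts scaled to library size with the TMM normalisation of edgeR, and a gene is called higher or lower where the Benjamini-Hochberg adjusted p of edgeR's quasi-likelihood test, taken over 17036 genes, was under 0.05. Markers of the kidney proximal tubule (8 genes) were abundant in every group, with mean sums of 9993, 3339 and 8402 CPM in sham, AKI_PBS and AKI_PTPi_mEVs. AKI_PBS replicate 3 lay apart from the other AKI_PBS libraries on the third principal component of all genes, and results that rest on it are given without it below. Ptpn1 averaged 90.1, 147 and 102 CPM in sham, AKI_PBS and AKI_PTPi_mEVs, with a log2 fold change of 0.71 ± 0.15 (SE; edgeR adjusted p = 0.0012) for AKI_PBS over sham and -0.53 ± 0.15 (SE; edgeR adjusted p = 0.00862) for AKI_PTPi_mEVs over AKI_PBS. Injury changed a large part of the transcriptome, and counts of called genes are to be read against the share of all genes called the same way. The 3 comparisons share libraries, so their values are given side by side and are not independent of each other.

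The 48 genes together took 0.707 to 0.730% of all counts in sham, 0.807 to 0.979% in AKI_PBS and 0.794 to 0.921% in AKI_PTPi_mEVs. In AKI_PBS against sham 12 were called higher and 5 lower, where 27.8% of all genes were called higher and 27.9% lower, so both shares were near or below the background. In AKI_PTPi_mEVs against AKI_PBS 8 were called higher and 2 lower, below the background of 25.4% and 25.8%. In AKI_PTPi_mEVs against sham 12 were called higher and 1 lower, where 7.43% of all genes were higher and 5.79% lower. Groups did not overlap for 15 genes higher and 6 lower in the first comparison, 13 and 4 in the second and 20 and 2 in the third, where these shares over all genes were 31.2% and 30.9%, 28.7% and 29.2%, and 21.2% and 18.1%. Calls of at least 2-fold were rare: 2 of the 48 were lower in AKI_PBS against sham (Psmb9 and Psmc3ip), 3 were higher in AKI_PTPi_mEVs against AKI_PBS (Psmd5, Psmg1 and Psmc3ip) and none was in AKI_PTPi_mEVs against sham, beside 16.7% of all genes lower and 14% higher in the first, 13.4% higher and 13.4% lower in the second and 2.49% higher and 3.3% lower in the third. Of the 12 genes called higher in AKI_PTPi_mEVs against sham, 11 were regulatory particle genes and the other was the chaperone Psmd5. In whole tissue, fewer cells of a type and less RNA per cell cannot be told apart. Scaled by library totals alone, the counts were 17 higher and 4 lower in AKI_PBS against sham and 5 higher and 10 lower in AKI_PTPi_mEVs against AKI_PBS, and that scaling moved the median of all genes by -0.11 (log2) in the second.

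**Figure D1:**
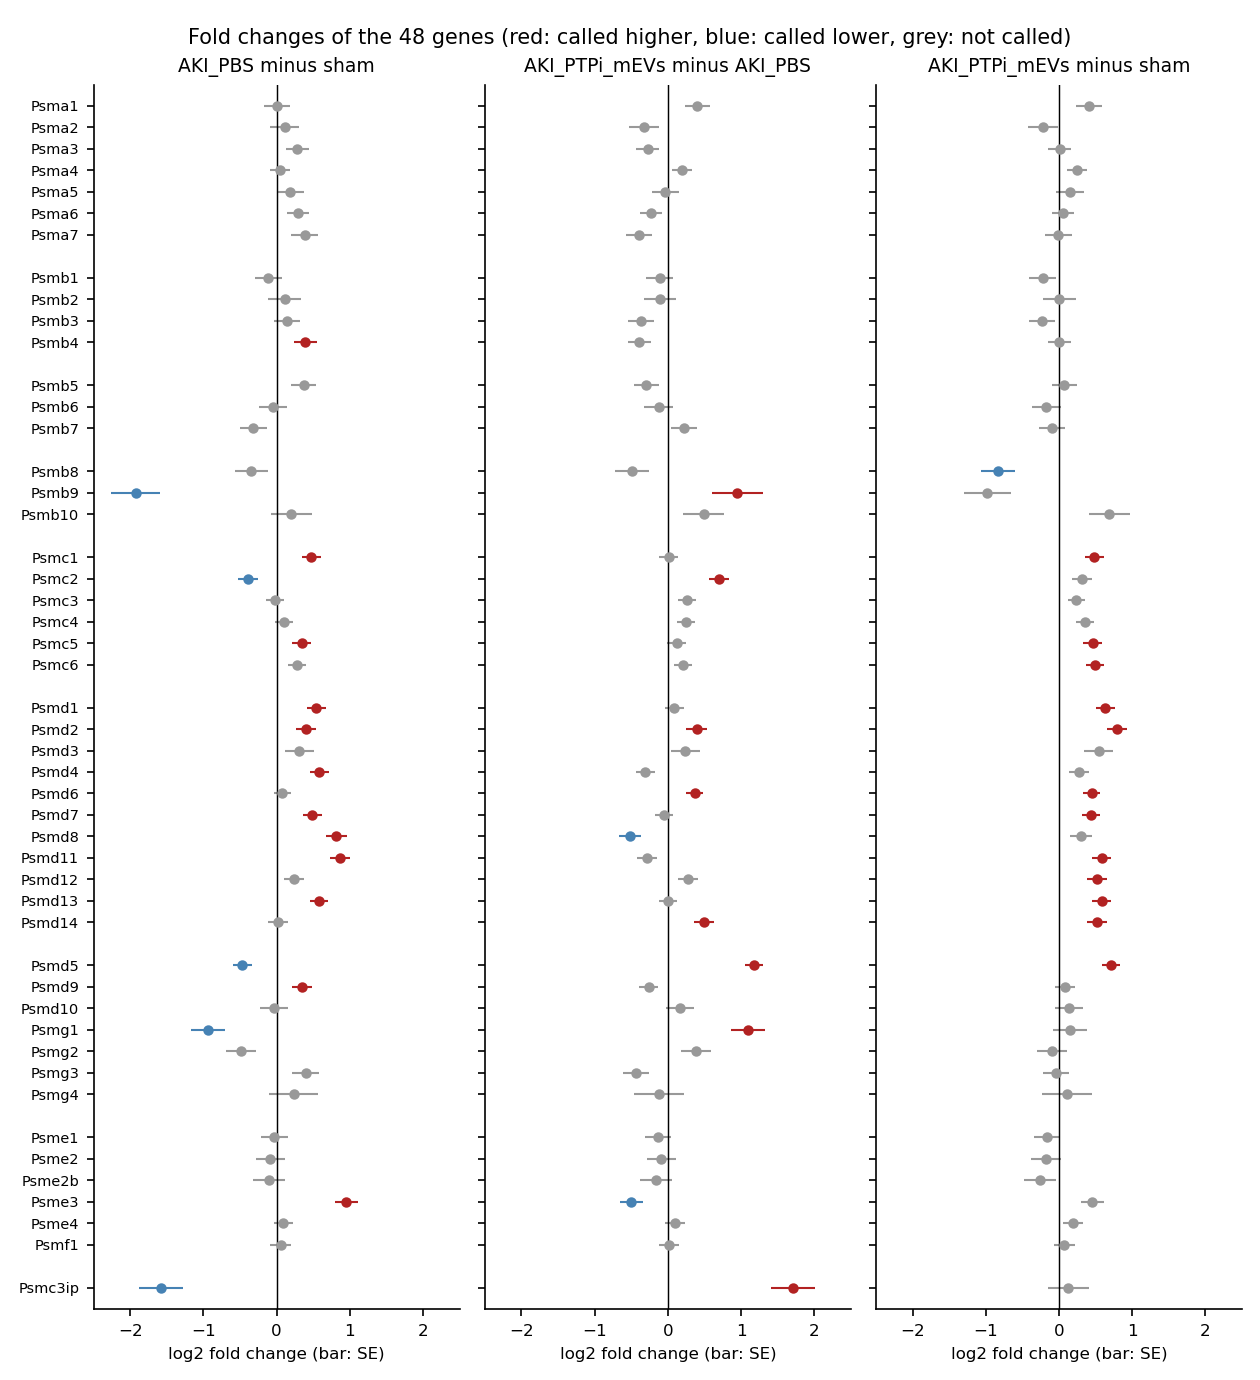
Log2 fold change of each of the 48 genes (points) with its SE (bars) in the 3 comparisons, ordered by class from the alpha subunits at the top to Psmc3ip at the bottom. The regulatory particle genes (Psmc1 to Psmd14) all lie to the right of 0 in AKI_PTPi_mEVs minus sham, between 0.24 and 0.80, while the core genes above them lie between -0.23 and 0.41.

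The standard core particle showed few called changes. Per kilobase of transcript, sham levels of its 14 genes ran from 58.9 CPM per kb for Psma2 to 436 CPM per kb for Psmb6, a 7.41-fold range, and the same genes stood lowest and highest in AKI_PBS and AKI_PTPi_mEVs. In AKI_PBS against sham 1 of 14 was called higher, Psmb4, a structural beta subunit, beside 27.8% of all genes. Psmb4 had 200.0, 204 and 205 CPM in sham, 295, 278 and 226 CPM in AKI_PBS, and 160.4, 231 and 218 CPM in AKI_PTPi_mEVs, so that each AKI_PBS library lay above each sham library. Its log2 fold change was 0.39 ± 0.16 (SE; edgeR adjusted p = 0.0484), and the call was lost without sham replicate 1, 2 or 3, AKI_PBS replicate 1 or 2 or AKI_PTPi_mEVs replicate 2 or 3, with fold changes between 0.31 and 0.39. The median log2 fold change of the 14 was 0.12 in AKI_PBS against sham, -0.18 in AKI_PTPi_mEVs against AKI_PBS and 0.0033 in AKI_PTPi_mEVs against sham, where all tested genes had medians of 0.028, -0.025 and -0.010. The edgeR test called 0 of 14 in AKI_PTPi_mEVs against AKI_PBS, with 1 higher and 1 lower at an unadjusted p under 0.05, and DESeq2 and limma voom each called 1 lower. It also called 0 of 14 in AKI_PTPi_mEVs against sham, with 1 higher at an unadjusted p under 0.05 and 0 called by DESeq2 or limma voom. Without AKI_PBS replicate 3, 3 core genes were called higher in AKI_PBS against sham and 4 lower in AKI_PTPi_mEVs against AKI_PBS. Without AKI_PTPi_mEVs replicate 1, 2 were called higher in AKI_PTPi_mEVs against AKI_PBS, and without AKI_PTPi_mEVs replicate 2, 2 were called lower there.

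Among the alpha subunits, which form the outer rings and the gate of the barrel, all 7 had positive fold changes in AKI_PBS against sham, from 0.0037 for Psma1 to 0.38 for Psma7, and none passed the edgeR test, with 0 at an unadjusted p under 0.05. Psma7 had 255, 237 and 215 CPM in sham, 353, 321 and 247 CPM in AKI_PBS, and 175, 279.7 and 246 CPM in AKI_PTPi_mEVs. Its AKI_PBS values reached above the sham range in replicates 1 and 2 and fell within it in replicate 3, and its log2 fold change was 0.38 ± 0.18 (SE; edgeR adjusted p = 0.0911). Psma1 stood apart in AKI_PTPi_mEVs, with 171, 181 and 194 CPM in sham, 216, 195 and 135 CPM in AKI_PBS, and 203, 264 and 257 CPM in AKI_PTPi_mEVs. Its AKI_PTPi_mEVs libraries were all above its sham libraries, but the log2 fold change of 0.41 ± 0.17 (SE; edgeR adjusted p = 0.14) missed the threshold. Psma1 was named for this after its values were seen. Psma3 (0.28 ± 0.15, SE), Psma6 (0.29 ± 0.15, SE) and Psma5 (0.19 ± 0.19, SE) also missed it in AKI_PBS against sham.

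None of the 3 standard catalytic subunits was called in any comparison. Psmb5, which carries the chymotrypsin-like site, had 185, 207 and 211 CPM in sham, 299, 273 and 206 CPM in AKI_PBS, and 164, 241 and 228 CPM in AKI_PTPi_mEVs. Its log2 fold change in AKI_PBS against sham was 0.37 ± 0.17 (SE; edgeR adjusted p = 0.089), with AKI_PBS replicate 3 inside the sham range. Psmb6, the caspase-like subunit, averaged 348, 337 and 309 CPM in sham, AKI_PBS and AKI_PTPi_mEVs, and Psmb7, the trypsin-like subunit, averaged 134, 108 and 126 CPM. Their fold changes in AKI_PBS against sham were -0.049 ± 0.19 (SE; edgeR adjusted p = 0.847) and -0.32 ± 0.18 (SE; edgeR adjusted p = 0.147), and none of the 3 subunits had groups that did not overlap in any comparison. Psmb1, Psmb2 and Psmb3, the other structural beta subunits, had log2 fold changes of -0.11, 0.11 and 0.14 in AKI_PBS against sham and were not called in any comparison.

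The antioxidant response element (ARE), bound by NRF1 and NRF2, is the element through which proteasome genes are known to respond when proteasome activity is lost. The letters TGACNNNGC were searched on both strands in the RefSeq promoter windows (GRCm38.p6, 250 bases before to 50 after each start, 44 windows of 41 of the 48 genes). They occurred in 13.6% of the 44 windows and in 12.4% of all 32851 windows. In the core particle they stood before Psmb5 and Psmb6, shown here because these are 2 of the 3 standard catalytic genes, with the match in capitals.
Psmb5 (chr14:54618024-54618052, - strand): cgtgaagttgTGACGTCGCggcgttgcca
Psmb6 (chr11:70525338-70525366, + strand): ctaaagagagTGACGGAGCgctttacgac

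**Figure D2:**
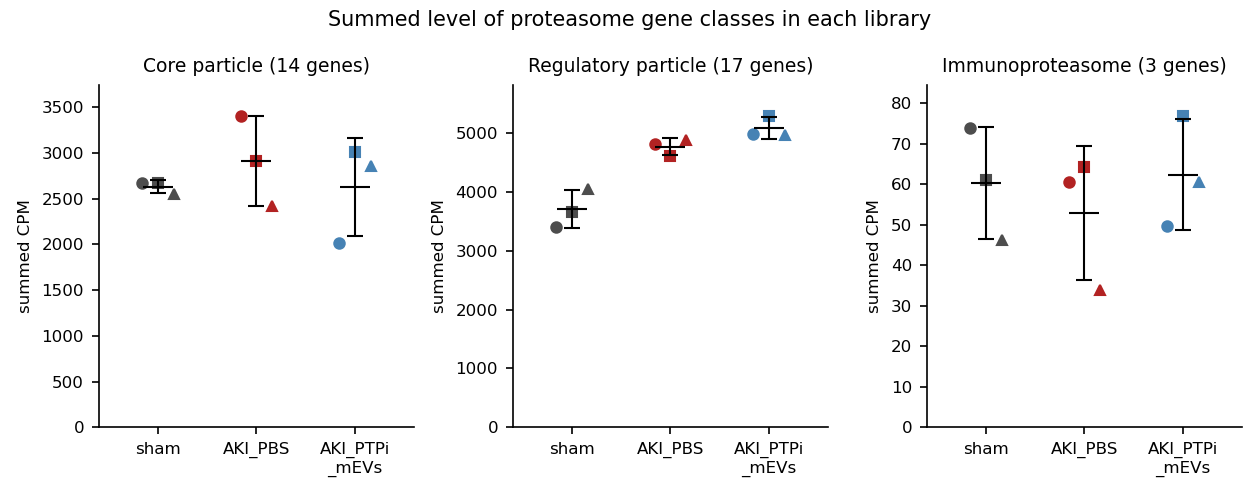
Summed CPM of the core particle, regulatory particle and immunoproteasome genes in each library (circle, square and triangle are replicates 1, 2 and 3; horizontal bars are the group mean and error bars the SD, n = 3). The regulatory particle sums of the injured groups, 4611 to 5297 CPM, lie above those of sham, while the core sums overlap.

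The summed level of the regulatory particle was higher in both injured groups than in sham. Its 17 genes summed to 3411, 3661 and 4059 in sham, 4811, 4611 and 4891 in AKI_PBS, and 4982, 5297 and 4968 in AKI_PTPi_mEVs CPM, so that the injured libraries lay above the sham libraries, and the core particle summed to 2670, 2667 and 2548 in sham, 3405, 2911 and 2413 in AKI_PBS, and 2010, 3010 and 2859 in AKI_PTPi_mEVs CPM, with overlapping groups. The ratio of the regulatory to the core sum was 1.28, 1.37 and 1.59 in sham, 1.41, 1.58 and 2.03 in AKI_PBS and 2.48, 1.76 and 1.74 in AKI_PTPi_mEVs. Sham and AKI_PBS overlapped in this ratio, and AKI_PTPi_mEVs lay above sham throughout. The sums weight abundant genes most and are given without a test.

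Gene by gene, 9 of the 17 were called higher and 1 lower in AKI_PBS against sham, 4 higher and 1 lower in AKI_PTPi_mEVs against AKI_PBS, and 11 higher and none lower in AKI_PTPi_mEVs against sham. Over all genes the shares called higher and lower were 27.8% and 27.9% in the first comparison, 25.4% and 25.8% in the second, where the 4 of 17 were near the background, and 7.43% and 5.79% in the third. The median log2 fold changes were 0.34, 0.21 and 0.48. In AKI_PTPi_mEVs against sham the fold changes of all 17 were positive, and the edgeR test found 0 lower, also at an unadjusted p under 0.05 and with DESeq2 and limma voom. In that comparison the libraries of 15 of the 17 were higher with no overlap between the groups, as were those of 21.2% of all genes. The count of 11 was not stable to leaving out libraries. It was 3 without sham replicate 1, 2 without sham replicate 2, 4 without AKI_PTPi_mEVs replicate 1 and 2 without AKI_PTPi_mEVs replicate 2, while the share of all genes called higher fell to between 2.75 and 4.72%. The median stayed between 0.43 and 0.56 whichever library was left out, with 17 of 17 positive each time.

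Cell type markers moved with injury beside these counts. Of the 8 proximal tubule markers, 7 were called lower in AKI_PBS against sham and 7 higher in AKI_PTPi_mEVs against AKI_PBS, with sums of 8811, 10250 and 10916 in sham, 3210, 2586 and 4220 in AKI_PBS, and 8420, 6379 and 10407 in AKI_PTPi_mEVs CPM. The mean sums of the 8 neutrophil markers were 0.610 CPM in sham, 23.0 CPM in AKI_PBS and 2.07 CPM in AKI_PTPi_mEVs, without overlap between the groups, and the 7 tested were all called higher in AKI_PBS against sham. In AKI_PTPi_mEVs against sham, where the regulatory particle had 11 calls, the median log2 fold change was -0.13 for the tubule markers and 2.29 for the tested neutrophil markers, none of them called by edgeR. In that comparison 2 of 7 markers of the loop of Henle, distal tubule and collecting duct were called lower, among them Slc12a1 at -1.38 ± 0.27 (SE; edgeR adjusted p = 0.00728), with 5 of the 7 lower without overlap, and of 5 fibroblast markers Dcn was called lower, at -1.38 ± 0.37 (SE; edgeR adjusted p = 0.0314). Over all genes, 27.8% were called higher and 27.9% lower in AKI_PBS against sham, and 25.4% higher in AKI_PTPi_mEVs against AKI_PBS. In AKI_PTPi_mEVs against sham 5.79% of all genes were called lower, and 18.1% were lower without overlap. The part of cell composition in the regulatory particle values was not tested.

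The largest subunits of the base, Psmd1 and Psmd2, bind ubiquitin receptors and shuttle factors. Psmd1 had 134, 164 and 169 CPM in sham, 234, 223 and 224 CPM in AKI_PBS, and 234, 253 and 237 CPM in AKI_PTPi_mEVs. Each injured library exceeded each sham library, with log2 fold changes of 0.54 ± 0.13 (SE; edgeR adjusted p = 0.00312) for AKI_PBS and 0.63 ± 0.13 (SE; edgeR adjusted p = 0.00771) for AKI_PTPi_mEVs. Psmd2 had 227, 292 and 309 CPM in sham, 375, 364 and 356 CPM in AKI_PBS, and 475, 500.0 and 462 CPM in AKI_PTPi_mEVs. Its 3 groups did not overlap and followed the order sham, AKI_PBS, AKI_PTPi_mEVs, with log2 fold changes of 0.40 ± 0.14 (SE; edgeR adjusted p = 0.0252), 0.39 ± 0.14 (SE; edgeR adjusted p = 0.0308) and, for AKI_PTPi_mEVs against sham, 0.80 ± 0.14 (SE; edgeR adjusted p = 0.00346). The call in AKI_PBS against sham was lost without sham replicate 1 or 2 or AKI_PBS replicate 1, with fold changes between 0.27 and 0.43, and that in AKI_PTPi_mEVs against AKI_PBS without AKI_PBS replicate 2 or 3 or AKI_PTPi_mEVs replicate 1 or 2, between 0.38 and 0.41. Exons of Psmd1 overlap Htr2b on the opposite strand and a gene model on the same strand. The strand setting of the counting is not given, so it is not known whether reads of Htr2b were kept apart.

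The ATPase ring, built from Psmc1 to Psmc6, did not move as 1 block in AKI_PBS. Psmc1 had 233, 253 and 289 CPM in sham, 361, 332 and 385 CPM in AKI_PBS, and 362, 378 and 344 CPM in AKI_PTPi_mEVs. Both injured groups lay above sham, with log2 fold changes of 0.48 ± 0.13 (SE; edgeR adjusted p = 0.00812) and 0.48 ± 0.13 (SE; edgeR adjusted p = 0.0293), the second lost without sham replicate 1 or 2 or AKI_PTPi_mEVs replicate 1 or 2 (between 0.42 and 0.49). Psmc2 had 189.7, 203 and 225 CPM in sham, 180.0, 142 and 149 CPM in AKI_PBS, and 251, 262 and 254 CPM in AKI_PTPi_mEVs. It was the 1 regulatory particle gene called lower in AKI_PBS, at -0.39 ± 0.13 (SE; edgeR adjusted p = 0.0243), and its AKI_PTPi_mEVs libraries exceeded all others, at 0.70 ± 0.13 (SE; edgeR adjusted p = 0.000838) over AKI_PBS and 0.31 ± 0.13 (SE; edgeR adjusted p = 0.138) over sham. The fall in AKI_PBS lost its call without sham replicate 2 or 3 or AKI_PBS replicate 2 or 3, with fold changes between -0.32 and -0.41. Psmc5 was called higher in AKI_PBS at 0.34 ± 0.13 (SE; edgeR adjusted p = 0.0386), a call lost without sham replicate 1 or 2, AKI_PBS replicate 2 or 3 or AKI_PTPi_mEVs replicate 1, 2 or 3 (between 0.28 and 0.33). Psmc6, with means of 114, 139 and 160.2 CPM in sham, AKI_PBS and AKI_PTPi_mEVs, was called higher in AKI_PTPi_mEVs against sham at 0.49 ± 0.12 (SE; edgeR adjusted p = 0.0212), a call lost without sham replicate 1 or 2 or AKI_PTPi_mEVs replicate 1 or 2 (between 0.44 and 0.50). Psmc3 and Psmc4 were called in no comparison. In AKI_PTPi_mEVs against sham all 6 were higher without overlap, as were 21.2% of all genes, and 3 of the 6 were called.

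Of the 11 non-ATPase genes, 7 were called higher in AKI_PBS against sham, beside 27.8% of all genes, and 8 in AKI_PTPi_mEVs against sham, beside 7.43%. Psmd11, a lid scaffold subunit known to promote assembly of the whole particle, had 189, 204 and 230.1 CPM in sham, 392, 345 and 398 CPM in AKI_PBS, and 309, 333 and 290.4 CPM in AKI_PTPi_mEVs. It had the largest rise of the regulatory particle in AKI_PBS, 0.86 ± 0.13 (SE; edgeR adjusted p = 0.00014), and its AKI_PTPi_mEVs libraries lay between the other groups, at -0.28 ± 0.13 (SE; edgeR adjusted p = 0.0877) against AKI_PBS and 0.58 ± 0.13 (SE; edgeR adjusted p = 0.0132) against sham. The last call was lost without sham replicate 1 or 2 or AKI_PTPi_mEVs replicate 2 (between 0.52 and 0.57). Psmd8, another lid subunit, had 193, 197 and 206 CPM in sham, 360.0, 329 and 362 CPM in AKI_PBS, and 192, 277 and 264 CPM in AKI_PTPi_mEVs. It rose in AKI_PBS by 0.82 ± 0.15 (SE; edgeR adjusted p = 0.000511) and was the 1 regulatory particle gene called lower in AKI_PTPi_mEVs against AKI_PBS, at -0.52 ± 0.15 (SE; edgeR adjusted p = 0.0105). Without AKI_PTPi_mEVs replicate 1, its lowest AKI_PTPi_mEVs library, the second value was -0.36 and not called. Psmd4, a ubiquitin receptor, averaged 335, 502 and 405 CPM in sham, AKI_PBS and AKI_PTPi_mEVs and was called higher in AKI_PBS at 0.58 ± 0.13 (SE; edgeR adjusted p = 0.00244). Psmd13, a lid subunit, was higher in both injured groups, at 0.57 ± 0.12 (SE; edgeR adjusted p = 0.00179) and 0.58 ± 0.13 (SE; edgeR adjusted p = 0.0101), the second lost without sham replicate 2 or AKI_PTPi_mEVs replicate 2 (between 0.55 and 0.55).

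Psmd14, the deubiquitinase that cuts ubiquitin chains off the substrate, was not called in AKI_PBS against sham (0.020 ± 0.14 (SE; edgeR adjusted p = 0.91)) and was higher in AKI_PTPi_mEVs. It had 104, 113 and 134 CPM in sham, 132, 105 and 119 CPM in AKI_PBS, and 163, 172 and 168 CPM in AKI_PTPi_mEVs. Its AKI_PTPi_mEVs libraries exceeded all others, at 0.50 ± 0.14 (SE; edgeR adjusted p = 0.00877) over AKI_PBS, and the call over sham, 0.52 ± 0.14 (SE; edgeR adjusted p = 0.0262), was lost without sham replicate 1 or 2 or AKI_PTPi_mEVs replicate 1, 2 or 3 (between 0.44 and 0.54). Psmd6, a lid subunit, had means of 150.4, 159 and 205 CPM and a log2 fold change of 0.37 ± 0.12 (SE; edgeR adjusted p = 0.0197) over AKI_PBS, lost without AKI_PBS replicate 2 or AKI_PTPi_mEVs replicate 2 (between 0.34 and 0.36). Psmd12 and Psmd7 were called higher in AKI_PTPi_mEVs against sham at 0.51 and 0.43, calls lost without between 4 and 6 of the libraries in turn. Psmd7 was also called higher in AKI_PBS against sham, at 0.49 ± 0.13 (SE; edgeR adjusted p = 0.00523), a call kept under every alternative run. Psmd3 was called in no comparison. Psmd14, Psmd6, Psmd12, Psmd7 and Psmd3 were named for this after their values were seen.

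**Figure D3:**
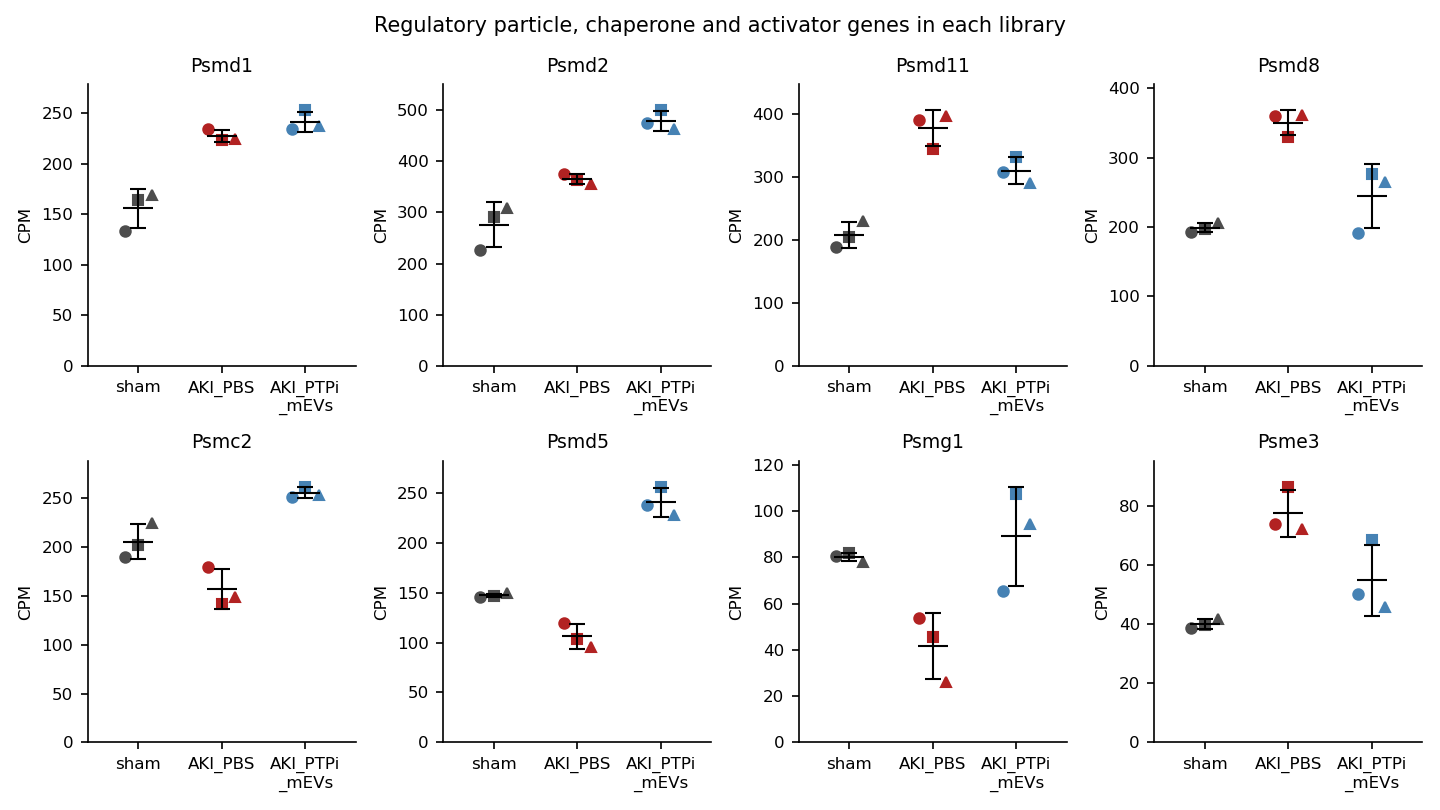
CPM of 8 genes in each library (circle, square and triangle are replicates 1, 2 and 3; bars mean and SD, n = 3): 5 regulatory particle genes, the chaperones Psmd5 and Psmg1 and the activator Psme3. Psmd1 and Psmd2 are above sham in both injured groups, Psmd11, Psmd8 and Psme3 peak in AKI_PBS, and Psmc2, Psmd5 and Psmg1 are lowest in AKI_PBS.

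The letters CCGGAAG, a core sequence recognised by ETS-family factors, were searched on both strands of the promoter windows. They occurred in 10 of 15 windows of the regulatory particle (66.7%, 9 of 14 genes with a window), in 1 of 12 windows of the core particle and in 8.86% of all 32851 windows. This is a description of letters in windows that were not matched for base composition, and it was chosen among 4 motifs. Of the 9 genes with a match 7 were called higher in AKI_PTPi_mEVs against sham, and of the 5 without one 3 were, beside 7.43% of all genes. In AKI_PBS against sham 5 of the 9 and 3 of the 5 were called higher, beside 27.8% of all genes. Whether match and call go together was not tested. The stretches of the 7 genes are shown with the motif in capitals, so that its setting can be compared, on the strand on which it reads CCGGAAG. Psmc2 and Psmd4 also matched, were not called in AKI_PTPi_mEVs against sham and are not shown.
Psmc1 (chr12:100110164-100110190, - strand): atcgccaccgCCGGAAGtgcatccacc
Psmc6 (chr14:45329714-45329740, + strand): ggcgggccagCCGGAAGgggcggagcc
Psmd2 (chr16:20651616-20651642, - strand): gtcctccagaCCGGAAGcgccctgcgg
Psmd6 (chr14:14120974-14121000, - strand): agagacgcgaCCGGAAGtcagactggc
Psmd11 (chr11:80428594-80428620, - strand): aaacacacacCCGGAAGacccgccctc
Psmd12 (chr11:107479501-107479527, - strand): gtcactcgcaCCGGAAGtcgcccgctc
Psmd13 (chr7:140882378-140882404, + strand): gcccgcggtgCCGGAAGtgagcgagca

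The 3 immunoproteasome genes took separate courses, and none rose with injury past the test. Psmb9, the counterpart of Psmb6, had 11.1, 9.30 and 6.10 CPM in sham, 3.11, 2.57 and 1.24 CPM in AKI_PBS, and 3.58, 5.24 and 4.62 CPM in AKI_PTPi_mEVs. Its AKI_PBS libraries lay below all others and its AKI_PTPi_mEVs libraries between those of AKI_PBS and sham, without overlap. It fell in AKI_PBS by a log2 fold change of -1.93 ± 0.34 (SE; edgeR adjusted p = 0.000376), the largest fall among the 48 genes, and was higher in AKI_PTPi_mEVs than in AKI_PBS at 0.95 ± 0.35 (SE; edgeR adjusted p = 0.0367), while against sham the value of -0.98 ± 0.32 (SE; edgeR adjusted p = 0.0615) missed the threshold. The call against AKI_PBS was lost without AKI_PBS replicate 2 or 3 or AKI_PTPi_mEVs replicate 2 or 3, with fold changes between 0.65 and 1.03. The values rest on few reads, with raw counts of 113, 100 and 60 in sham, 36, 30 and 14 in AKI_PBS and 39, 48 and 42 in AKI_PTPi_mEVs.

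Psmb8, the counterpart of Psmb5, had 29.3, 24.4 and 18.6 CPM in sham, 21.5, 21.5 and 13.8 CPM in AKI_PBS, and 11.7, 12.6 and 16.3 CPM in AKI_PTPi_mEVs. The AKI_PTPi_mEVs libraries lay below the sham libraries, and AKI_PBS overlapped both. It was called lower in AKI_PTPi_mEVs against sham, at -0.83 ± 0.23 (SE; edgeR adjusted p = 0.0291), and not in AKI_PBS against sham (-0.35 ± 0.22 (SE; edgeR adjusted p = 0.2)) or AKI_PTPi_mEVs against AKI_PBS (-0.49 ± 0.23 (SE; edgeR adjusted p = 0.0882)). The call was lost without sham replicate 1 or 2 or AKI_PTPi_mEVs replicate 1 or 2, with fold changes between -0.67 and -0.82. Psmb10, the counterpart of Psmb7, had 33.5, 27.4 and 21.5 CPM in sham, 35.9, 40.1 and 18.8 CPM in AKI_PBS, and 34.3, 59.2 and 39.7 CPM in AKI_PTPi_mEVs. Its highest library was AKI_PTPi_mEVs replicate 2, and no comparison passed the test, the nearest being AKI_PTPi_mEVs against sham at 0.69 ± 0.28 (SE; edgeR adjusted p = 0.121). Exons of Psmb8 overlap an antisense gene model, and the strand setting of the counting is not given in the sources used here.

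Set beside the subunit each one replaces, per kilobase of transcript, the immunoproteasome genes were the minor form in every library. Psmb8 stood at 8.76, 6.50 and 4.88% in sham, 3.98, 4.36 and 3.70% in AKI_PBS, and 3.94, 2.87 and 3.94% in AKI_PTPi_mEVs of Psmb5. Psmb9 stood at 1.76, 1.55 and 1.12% in sham, 0.465, 0.453 and 0.261% in AKI_PBS, and 0.984, 0.834 and 0.800% in AKI_PTPi_mEVs of Psmb6. Psmb10 stood at 23.3, 17.9 and 13.6% in sham, 24.6, 35.9 and 17.5% in AKI_PBS, and 33.3, 37.0 and 24.4% in AKI_PTPi_mEVs of Psmb7. The injured groups were lower than sham in the first pair and in the second, and the third overlapped between AKI_PBS and both other groups.

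**Figure D4:**
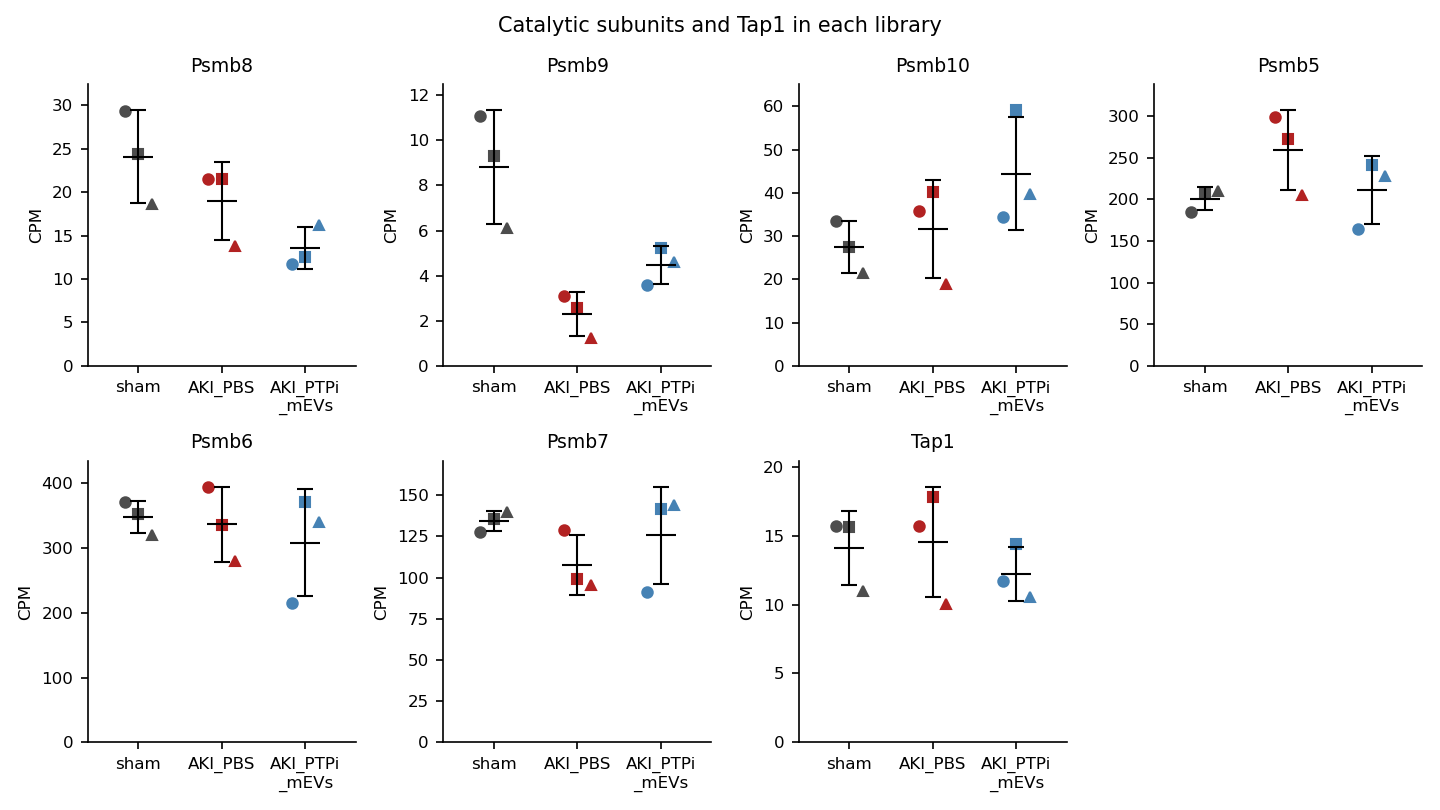
CPM of the immunoproteasome genes, their standard counterparts and Tap1 in each library (circle, square and triangle are replicates 1, 2 and 3; bars mean and SD, n = 3). Psmb9 is lowest in AKI_PBS, whereas Tap1, which shares a promoter with Psmb9, overlaps between the groups.

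Psmb9 and Tap1, the peptide transporter that feeds MHC class I loading, are transcribed in opposite directions from 1 shared promoter in the MHC region of chromosome 17. Tap1 had 15.7, 15.6 and 11.0 CPM in sham, 15.7, 17.8 and 10.1 CPM in AKI_PBS, and 11.7, 14.4 and 10.6 CPM in AKI_PTPi_mEVs. Its groups overlapped, and its log2 fold changes were 0.046 ± 0.24 (SE; edgeR adjusted p = 0.882) for AKI_PBS against sham and -0.25 ± 0.24 (SE; edgeR adjusted p = 0.396) for AKI_PTPi_mEVs against AKI_PBS, beside the -1.93 and 0.95 of Psmb9. Whether the 2 genes differed in response was not tested, and Tap1 was named for this promoter after its values were seen. Annotated exons of the 2 genes overlap on opposite strands. The sequence between their start sites (RefSeq, GRCm38.p6, chr17:34187331-34187555, + strand) is shown because both genes read out from it, with the 1 match to CCAAT in capitals. A fixed 10-letter pattern for the interferon-stimulated response element (ISRE), searched on both strands, had no match in the Psmb9 window. The pattern matched 0 of the 3 windows of the immunoproteasome genes, although interferon is their known inducer. The search missed any form of the element that departs from these letters or lies outside the window. It therefore cannot show whether the promoter holds such an element.
Psmb9-Tap1: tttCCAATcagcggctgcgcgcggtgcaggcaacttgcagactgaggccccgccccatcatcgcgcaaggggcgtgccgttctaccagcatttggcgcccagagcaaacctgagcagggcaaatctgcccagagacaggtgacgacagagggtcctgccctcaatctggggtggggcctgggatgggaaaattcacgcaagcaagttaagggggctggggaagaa

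Interferon is the known inducer of the immunoproteasome genes. Of 12 interferon regulators, 5 were called higher in AKI_PBS against sham, 3 lower in AKI_PTPi_mEVs against AKI_PBS, and 3 higher in AKI_PTPi_mEVs against sham, where 27.8% of all genes were called higher in the first, 25.8% lower in the second and 7.43% higher in the third. The interferon gamma receptor chains Ifngr1 (1.0, edgeR adjusted p = 0.00023) and Ifngr2 (1.41, edgeR adjusted p = 1.78e-06) and the myeloid factor Irf8 (0.89, edgeR adjusted p = 7.04e-05) rose in AKI_PBS against sham. Of 10 antigen presentation genes, 3 were called higher and 3 lower in AKI_PBS against sham, 3 and 2 in AKI_PTPi_mEVs against AKI_PBS, and 3 and 0 in AKI_PTPi_mEVs against sham. The counts of the first and the second comparison were near the shares of all genes, 27.8% and 27.9%, then 25.4% and 25.8%. In the third, 7.43% of all genes were called higher and 5.79% lower. The MHC class I heavy chains H2-K1 (0.89, edgeR adjusted p = 0.000163) and H2-D1 (0.89, edgeR adjusted p = 0.000494) rose in AKI_PBS against sham, while the peptide-loading chaperones Calr (-0.82, edgeR adjusted p = 0.000348) and Pdia3 (-0.62, edgeR adjusted p = 0.00302) fell. H2-K1 and H2-D1 are close in sequence and could share reads.

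Immune cells carry much of a tissue's immunoproteasome, and their markers moved with the groups. The 7 general leukocyte markers summed to 47.4, 48.9 and 31.0 in sham, 45.0, 68.4 and 61.0 in AKI_PBS, and 41.5, 27.4 and 38.1 in AKI_PTPi_mEVs CPM. The 6 T and NK cell markers summed to 2.65, 3.35 and 2.54 in sham, 0.519, 0.600 and 0.795 in AKI_PBS, and 0.734, 0.109 and 0.769 in AKI_PTPi_mEVs CPM, and Cd3d and Gzma had a mean of 0 in AKI_PTPi_mEVs. The 6 B and plasma cell markers summed to 8.33, 9.30 and 4.88 in sham, 2.42, 1.97 and 2.39 in AKI_PBS, and 4.77, 3.17 and 3.96 in AKI_PTPi_mEVs CPM. T and NK cell sums were lower in each injured library than in each sham library, as Psmb9 was. From AKI_PBS to AKI_PTPi_mEVs the 2 differed. Psmb9 was higher there, at 0.95, while the mean T and NK cell sum went from 0.638 to 0.538 CPM. None of the 6 T and NK cell markers passed the low-count filter of the test, so their sums rest on few reads. B and plasma cell sums were lowest in AKI_PBS, intermediate in AKI_PTPi_mEVs and highest in sham, without overlap, the order that Psmb9 took. Of the 6 B and plasma cell markers 2 were tested, and both were called lower in AKI_PBS against sham. In AKI_PTPi_mEVs 1 was called higher against AKI_PBS and 1 lower against sham. The 9 macrophage and dendritic cell markers summed to 125, 121 and 97.2 in sham, 111, 95.5 and 64.9 in AKI_PBS, and 87.7, 70.0 and 74.2 in AKI_PTPi_mEVs CPM. Of the 8 tested, 4 were called lower and 1 higher in AKI_PBS against sham, 4 higher in AKI_PTPi_mEVs against AKI_PBS, and 1 lower and 1 higher in AKI_PTPi_mEVs against sham. Over all genes 27.9% were called lower and 27.8% higher in the first comparison, and 25.4% higher in the second. In the third, 5.79% were called lower and 7.43% higher. In AKI_PBS against sham Cx3cr1 was at -4.01 (edgeR adjusted p = 0.000179) and Csf1r at -1.96 (edgeR adjusted p = 1.38e-06), and Cd68 was the 1 called higher, at 2.28 (edgeR adjusted p = 6.39e-05). The part of these cells in the values of Psmb8, Psmb9 and Psmb10 was not tested.

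The assembly chaperones, which build the particles and leave them once complete, had calls in both directions in AKI_PBS against sham. Psmd5, a chaperone of the ATPase base, had 146, 146 and 149 CPM in sham, 120.0, 104 and 95.4 CPM in AKI_PBS, and 237, 256 and 227 CPM in AKI_PTPi_mEVs. Its 3 groups did not overlap. It was called lower in AKI_PBS against sham at -0.47 ± 0.13 (SE; edgeR adjusted p = 0.00717), and higher in AKI_PTPi_mEVs at 1.18 ± 0.13 (SE; edgeR adjusted p = 1.50e-05) over AKI_PBS and 0.71 ± 0.13 (SE; edgeR adjusted p = 0.00396) over sham. Psmg1, which helps close the alpha ring, had 80.5, 81.8 and 78.0 CPM in sham, 53.7, 45.5 and 26.1 CPM in AKI_PBS, and 65.4, 107 and 94.4 CPM in AKI_PTPi_mEVs. It fell in AKI_PBS, at -0.94 ± 0.23 (SE; edgeR adjusted p = 0.00445), and was higher in AKI_PTPi_mEVs than in AKI_PBS, at 1.09 ± 0.24 (SE; edgeR adjusted p = 0.00199), with AKI_PTPi_mEVs overlapping sham. Its partner Psmg2 averaged 39.9, 28.5 and 37.3 CPM in sham, AKI_PBS and AKI_PTPi_mEVs and missed the threshold in AKI_PBS against sham, at -0.49 ± 0.21 (SE; edgeR adjusted p = 0.0593). Psmd9, another base chaperone, was called higher in AKI_PBS at 0.34 ± 0.13 (SE; edgeR adjusted p = 0.043), against the direction of the other called chaperones, and lost that call without sham replicate 1, 2 or 3, AKI_PBS replicate 2 or 3 or AKI_PTPi_mEVs replicate 1, 2 or 3 (between 0.24 and 0.37). Over the 7 chaperones 1 was called higher and 2 lower in AKI_PBS against sham, 2 higher and none lower in AKI_PTPi_mEVs against AKI_PBS, and 1 higher and none lower in AKI_PTPi_mEVs against sham. Over all genes 27.8% and 27.9% were called higher and lower in the first comparison, and 25.4% higher in the second. The counts of both comparisons were near or below these shares. In the third, 7.43% of all genes were called higher and 5.79% lower.

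Among activators and inhibitors, Psme3 changed past the test. Psme3 encodes the nuclear activator that opens the core without ubiquitin or ATP. It had 38.6, 39.7 and 41.9 CPM in sham, 73.8, 86.6 and 72.2 CPM in AKI_PBS, and 50.4, 68.6 and 45.7 CPM in AKI_PTPi_mEVs. All AKI_PBS libraries exceeded all others, at 0.95 ± 0.16 (SE; edgeR adjusted p = 0.000263) over sham, and AKI_PTPi_mEVs was lower than AKI_PBS at -0.50 ± 0.16 (SE; edgeR adjusted p = 0.0178) and above sham at 0.45 ± 0.16 (SE; edgeR adjusted p = 0.0774), short of the threshold. The call against AKI_PBS was lost without AKI_PBS replicate 2 or AKI_PTPi_mEVs replicate 1 or 3 (between -0.37 and -0.43). Psme1 and Psme2, which form the interferon-inducible activator that works with the immunoproteasome, averaged 99.8, 97.8 and 88.9 CPM and 91.6, 86.3 and 81.1 CPM in sham, AKI_PBS and AKI_PTPi_mEVs. Their log2 fold changes in AKI_PBS against sham were -0.030 ± 0.18 (SE; edgeR adjusted p = 0.899) and -0.086 ± 0.20 (SE; edgeR adjusted p = 0.736), and those of Psme4, a large activator, and Psmf1, an inhibitor, were 0.093 ± 0.14 (SE; edgeR adjusted p = 0.579) and 0.055 ± 0.14 (SE; edgeR adjusted p = 0.757). Psme2b, a near copy of Psme2, averaged 8.89, 8.27 and 7.43 CPM and could share reads with it.

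Psmc3ip, the gene in the set that is no proteasome part, had 8.72, 9.49 and 6.71 CPM in sham, 3.63, 2.57 and 2.12 CPM in AKI_PBS, and 6.33, 12.2 and 8.79 CPM in AKI_PTPi_mEVs. AKI_PBS lay below both other groups, at -1.58 ± 0.30 (SE; edgeR adjusted p = 0.000704) against sham, and AKI_PTPi_mEVs was higher than AKI_PBS at 1.71 ± 0.30 (SE; edgeR adjusted p = 0.000505). Its exons overlap Mlx on the opposite strand, and without it the counts are 12 higher and 4 lower in AKI_PBS against sham and 7 higher and 2 lower in AKI_PTPi_mEVs against AKI_PBS.

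Among 12 proteasome-associated genes outside the name pattern, 6 were called higher in AKI_PBS against sham, 5 lower in AKI_PTPi_mEVs against AKI_PBS and 1 higher in AKI_PTPi_mEVs against sham, with no call in the opposite direction, beside 27.8%, 25.8% and 7.43% of all genes. Their median log2 fold changes were 0.46, -0.35 and 0.20. The stress-inducible Zfand2a averaged 16.7, 58.5 and 24.9 CPM in sham, AKI_PBS and AKI_PTPi_mEVs, at 1.81 ± 0.22 (SE; edgeR adjusted p = 2.74e-05) and -1.23 ± 0.22 (SE; edgeR adjusted p = 0.00055) in the first and the second comparison. Zfand5, which activates the particle, averaged 33.3, 84.7 and 35.6 CPM, at 1.35 ± 0.15 (SE; edgeR adjusted p = 1.04e-05) and -1.25 ± 0.15 (SE; edgeR adjusted p = 2.68e-05). Against sham, AKI_PTPi_mEVs was at 0.58 for Zfand2a and 0.10 for Zfand5, neither called. The deubiquitinase Usp14, which docks on Psmd2, was the gene called in AKI_PTPi_mEVs against sham, at 0.69 ± 0.14 (SE; edgeR adjusted p = 0.00672), and also rose in AKI_PBS, at 0.62 ± 0.14 (SE; edgeR adjusted p = 0.00185). Txnl1, a thioredoxin bound to the regulatory particle, rose in AKI_PBS at 0.74 ± 0.14 (SE; edgeR adjusted p = 0.000686).

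The NRF1 axis holds the factor that drives proteasome genes, its partners and the enzymes that release it from the endoplasmic reticulum. Of its 13 genes 7 were called higher in AKI_PBS against sham, 3 higher and 7 lower in AKI_PTPi_mEVs against AKI_PBS and 2 higher in AKI_PTPi_mEVs against sham, beside 27.8%, 25.4% and 25.8%, and 7.43% of all genes. The small Maf partner Maff averaged 0.943, 26.6 and 2.97 CPM in sham, AKI_PBS and AKI_PTPi_mEVs, at 4.80 ± 0.36 (SE; edgeR adjusted p = 6.37e-07) and -3.15 ± 0.31 (SE; edgeR adjusted p = 7.39e-06), and Mafk averaged 46.9, 135 and 46.7 CPM, at 1.53 ± 0.21 (SE; edgeR adjusted p = 6.47e-05) and -1.53 ± 0.21 (SE; edgeR adjusted p = 8.76e-05). Nploc4 and Ufd1, partners of the extraction ATPase Vcp, rose in AKI_PBS at 1.15 ± 0.13 (SE; edgeR adjusted p = 1.67e-05) and 0.71 ± 0.13 (SE; edgeR adjusted p = 0.000441). Nfe2l1, which encodes NRF1 itself and was named after its values were seen, averaged 129, 193 and 139.6 CPM, at 0.58 ± 0.13 (SE; edgeR adjusted p = 0.00246) in AKI_PBS against sham and -0.47 ± 0.13 (SE; edgeR adjusted p = 0.0103) in AKI_PTPi_mEVs against AKI_PBS. In AKI_PBS against sham, AKI_PTPi_mEVs against AKI_PBS and AKI_PTPi_mEVs against sham, the core genes had median log2 fold changes of 0.12, -0.18 and 0.0033. The regulatory particle genes had medians of 0.34, 0.21 and 0.48. The part of NRF1 in these values was not tested.

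Of 11 ubiquitin and shuttle genes, 5 were called higher in AKI_PBS against sham, 1 higher and 3 lower in AKI_PTPi_mEVs against AKI_PBS and 1 higher in AKI_PTPi_mEVs against sham, beside 27.8%, 25.4% and 25.8%, and 7.43% of all genes. The ubiquitin fusion gene Rps27a rose in AKI_PBS at 0.88 ± 0.18 (SE; edgeR adjusted p = 0.00124). The shuttle receptor Rad23b rose there at 0.63 ± 0.14 (SE; edgeR adjusted p = 0.00208), and the shuttle Ubqln1 at 0.47 ± 0.12 (SE; edgeR adjusted p = 0.00525). Ubiquitin-coding genes have processed copies with which reads can be shared.

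Within groups, the core genes shifted together from library to library. The median log2 deviation of the 14 genes from their group mean was 0.00021, 0.020 and -0.013 in sham, 0.24, 0.0043 and -0.24 in AKI_PBS, and -0.36, 0.21 and 0.13 in AKI_PTPi_mEVs. The number of the 14 above their group mean was 7, 10 and 7 in sham, 14, 8 and 0 in AKI_PBS, and 0, 14 and 14 in AKI_PTPi_mEVs. All 14 were therefore high in AKI_PBS replicate 1 and low in AKI_PBS replicate 3, and all 14 were low in AKI_PTPi_mEVs replicate 1. This swing was not particular to the core. The assembly chaperones had medians of 0.37, 0.020 and -0.28 in AKI_PBS and -0.29, 0.23 and 0.11 in AKI_PTPi_mEVs. Activators and inhibitors had 0.21, 0.039 and -0.16, then -0.19, 0.16 and 0.052. The immunoproteasome genes had 0.25, 0.21 and -0.63, then -0.27, 0.22 and 0.054. The regulatory particle did not follow, with medians of -0.11, -0.027 and 0.13 in sham, 0.040, -0.055 and 0.011 in AKI_PBS, and -0.024, 0.067 and -0.026 in AKI_PTPi_mEVs, and its widest swing was in sham, where 0, 4 and 17 of 17 lay above the mean. The median coefficient of variation of the core genes was 6.0% in sham, 17.3% in AKI_PBS and 20.9% in AKI_PTPi_mEVs, against 8.71, 6.04 and 4.77% for the regulatory particle.

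The deviations of other genes differed between classes of transcript length. Over the 2007 tested protein-coding genes with transcripts under 1000 bases, the median deviation was 0.020, 0.020 and -0.023 in sham, 0.086, 0.0093 and -0.093 in AKI_PBS, and -0.11, 0.087 and 0.055 in AKI_PTPi_mEVs, the same sign as the core particle in the 4 libraries where that deviated most and smaller in each. In the 3063 genes with transcripts of 1000 to 2000 bases it was -0.035, -0.0016 and 0.044 in sham, 0.031, -0.015 and -0.018 in AKI_PBS, and -0.019, 0.022 and 0.0060 in AKI_PTPi_mEVs. These classes took the median length of a gene's protein-coding transcripts, in genes with a mean of at least 5 CPM. By the longest principal transcript, 9 of the 14 core genes have 1000 bases or more. That is a different measure and does not place them in these classes. By that measure the core genes have transcripts of 766 to 2911 bases and the regulatory particle genes of 1316 to 3112 bases. The part of transcript length or RNA quality in the core values was not tested.

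**Figure D5:**
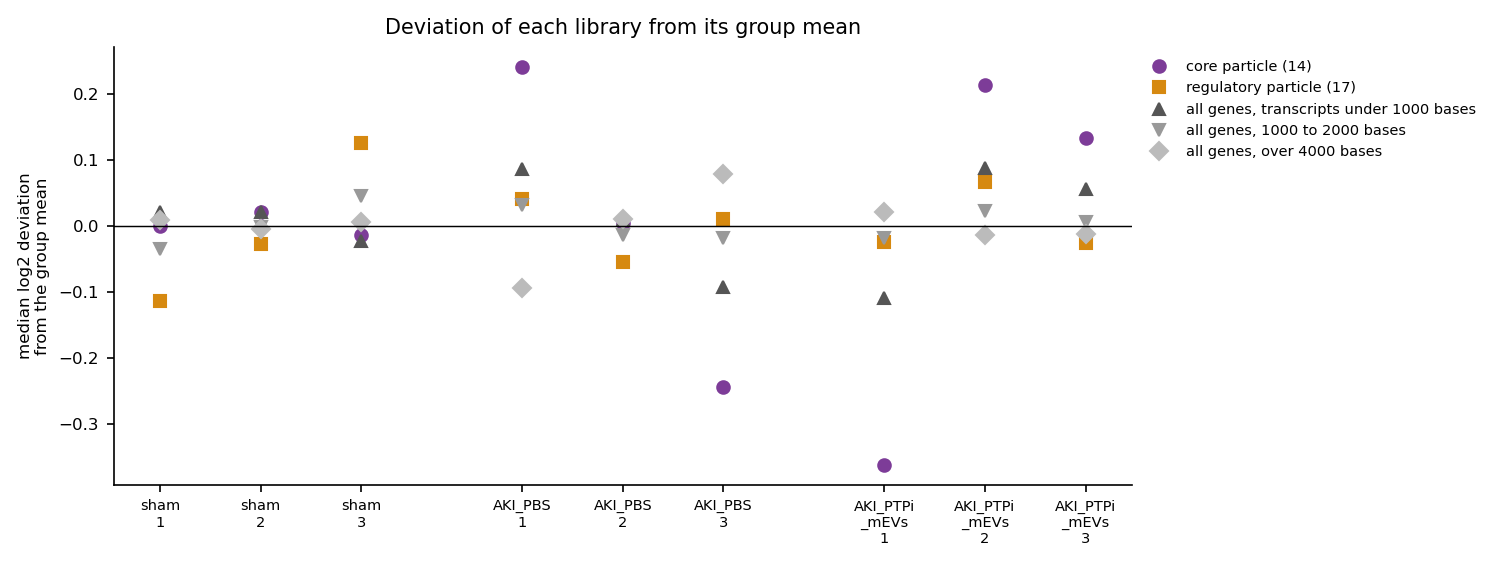
Median log2 deviation of each library from its group mean for the core particle, the regulatory particle and all genes (replicate number under each group name). All genes are the tested protein-coding genes with a mean of at least 5 CPM, in 3 classes of median transcript length. The core particle spans -0.36 to 0.24, wider than the short transcripts, which lie between -0.11 and 0.087.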

How the data were processed

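The 9 kidney libraries were prepared by tagmentation with Tn5 after a phenol-chloroform extraction, 100 ng of RNA each, per the labels' protocols. The deposited values are raw counts per gene, which the authors made with STAR and HTSeq, per the submitters' processing notes; no versions are named. GRCh38.p14, the build those notes name, is human, whereas the 56923 identifiers are those of mouse Ensembl genes, and the build of the counts was not settled. Nothing used here states the strand setting or the filters of the counting, and 15 of the 48 genes have exons that overlap another gene, 12 on the opposite strand. Symbols and gene types came from GENCODE vM21, and sequences from RefSeq (GRCm38.p6); 7 of the 48 genes had no promoter window there. Reads carry no molecular identifiers, so counts include amplification copies.

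Groups were taken from titles and treatment labels. One treated title (replicate 2) spells the vesicles PTP@mEVs, and its treatment label is that of the group. No libraries were duplicates. In R 4.3.3, edgeR 4.0.16 was used with TMM factors, filterByExpr by group (17036 genes) and glmQLFit (robust) with 1 mean per group over all 9 libraries (6 residual degrees of freedom), then glmQLFTest and Benjamini-Hochberg adjustment over all genes. The SE is the log2 fold change divided by the root of the F statistic. The fit was tested on simulated data. Alternatives were DESeq2 1.42.0, limma 3.58.1 voom, other scalings and filters, the compared groups alone, the replicate number as a block, and each library left out. Deviations used log2(CPM + 0.5), and levels per kilobase used the longest principal GENCODE transcript.

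The genes, gene lists and motifs were chosen with earlier results of these data known. Full values went to the 6 catalytic genes, up to 4 genes per other class with the smallest adjusted p in AKI_PBS against sham, up to 6 called in AKI_PTPi_mEVs against sham, those called against most of their class, and up to 4 genes of each other list. Some list items are not reported here.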

Additional observations from a re-analysis of the deposited data

How the results depend on the processing

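Of the 40 calls over the 3 comparisons, 20 were kept under every alternative run and 20 were lost when 1 library was left out, and no fold change of a called gene reversed. With 1 library left out in turn, all 48 genes gave 8 to 13 higher and 4 to 6 lower in AKI_PBS against sham, 5 to 10 and 0 to 8 in AKI_PTPi_mEVs against AKI_PBS, and 3 to 14 and 0 to 2 in AKI_PTPi_mEVs against sham. The core particle gave 0 to 3 higher in the first, 0 to 2 higher and 0 to 4 lower in the second and 0 to 1 higher in the third. The regulatory particle gave 7 to 10 higher and 0 to 1 lower, then 2 to 4 higher and 0 to 1 lower, then 2 to 11 higher. A fit without 1 library also has fewer residual degrees of freedom, and the share of all genes called higher in AKI_PTPi_mEVs against sham fell to as little as 2.75%.

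Scaled by library totals, 3 core genes were called higher and 0 regulatory genes lower in AKI_PBS against sham, and in AKI_PTPi_mEVs against AKI_PBS 5 of the 48 were higher and 10 lower, with 4 core genes lower and 2 regulatory genes higher and 3 lower. With relative log expression factors, limma voom, no low-count filter or the stricter filter of 50 counts in 3 libraries, 0 core genes were called higher in AKI_PBS against sham. In AKI_PTPi_mEVs against AKI_PBS, no filter gave 1 core gene higher, the stricter filter gave 6 of the 48 lower, 1 of them core and 3 regulatory, DESeq2 gave 4 lower, 1 core and 2 regulatory, and limma voom gave 1 core gene lower. In AKI_PTPi_mEVs against sham, DESeq2, no filter and the fit of the compared groups alone each gave 2 of the 48 lower. A 2-fold minimum left 0 higher and 2 lower of the 48 in AKI_PBS against sham, 3 and 0 in AKI_PTPi_mEVs against AKI_PBS, and 0 higher in AKI_PTPi_mEVs against sham, with 0 core and 0 regulatory genes. The cause of these changes was not tested. Ptpn1 kept its calls throughout.

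Same-numbered libraries showed no clear shared deviation (correlations of deviations from -0.19 to 0.11), and libraries of different numbers gave -0.17 to 0.15. These values cannot settle whether the numbers pair the samples. With the replicate number as a block, 9 higher and 5 lower, 8 and 2, and 11 and 1 of the 48 were called in the 3 comparisons, 0 of the core in the first. With 3 libraries a group, low genes such as Psmb9 and Psmg4 limit the precision most.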

Other observations

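Psma8, the testis form of an alpha subunit, had 23 counts over the 9 libraries and at most 6 in any of them, and Psmb11, the thymus-specific catalytic subunit, had 0 counts. Of the 4 pseudogenes with matching names, the highest was Psmb6-ps2 with 9 counts in all. These genes are outside the 48 by the count minimum or the gene type.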
